A study of Mus musculus with 6 samples.

Results

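Alpha-ketoglutarate-dependent dioxygenases other than the TET enzymes were examined in mouse embryonic fibroblasts (MEFs) on the way to induced pluripotent stem cells. The 41 genes were chosen by enzyme family, a rule that uses no measured value, although the families were picked with earlier results of these data known. They comprised 21 genes of Jumonji C (JmjC) proteins, 9 genes of the ALKBH family including *Fto*, 10 genes of the hydroxylases of hypoxia-inducible factor (HIF) and of collagen, and *Phyh*. All 41 were found among the 54331 genes of the table, and 40 were tested, with a mean over the 6 wells of 1 TPM or more (transcripts per 1000000). The exception was *Kdm4d*.

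These enzymes use molecular oxygen, alpha-ketoglutarate and ferrous iron to oxidise a substrate, and release succinate and carbon dioxide. Ascorbate keeps their iron reduced. Depending on the member, the substrate is a methylated histone lysine, a methylated base of DNA or RNA, a proline or asparagine of HIF, or a proline or lysine of collagen. Removal of histone methylation is part of the resetting of chromatin during reprogramming, while the EGLN enzymes mark HIF for destruction when oxygen is at hand, and HIF in turn activates genes of glycolysis and some of the dioxygenase genes themselves.

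The MEFs came from E13.5 male embryos of a mixed C57BL/6, DBA/2 and ICR background that carried the *Oct4*-EGFP transgene, and several embryos were combined. All cells received retroviral OCT4, SOX2 and KLF4 with AKT-MER (OSKA), a form of the kinase AKT that is switched on by 4-hydroxytamoxifen (4OHT). The 3 wells of the OSKA + 4OHT group were given 1 µM 4OHT from 3 days post infection (dpi), and the 3 wells of the OSKA − 4OHT group were given the ethanol vehicle. RNA was sequenced from whole wells at 10 dpi. By the study's methods, infected cells were replated into wells at 3 dpi and split between the groups. The wells were assessed separately, and no separate MEF preparations or infections are stated for them. The p-values and intervals thus measure the spread between wells split from infected cells, not between MEF preparations or infections. Whole wells hold cells at different stages, and fewer cells of a type cannot be told apart from less RNA per cell.

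The values were TPM per gene, which adjust for transcript length but do not keep the depth of a well. A value above 0 was listed for 15814 to 18230 genes per well. Over 8 fibroblast markers the summed level ran from 7388 to 8936 TPM in the OSKA − 4OHT wells and from 4498 to 5822 TPM in the OSKA + 4OHT wells. Over 8 pluripotency markers it ran from 3.77 to 5.59 TPM and from 48.7 to 60.1 TPM, with 3 of the 8 listed at 0 in every OSKA − 4OHT well. Over 4 epithelial markers it ran from 30.1 to 69.4 TPM and from 144.2 to 155.9 TPM, and over 6 macrophage markers from 118.9 to 133.3 TPM and from 74.3 to 84.8 TPM. The macrophage sum was mostly *Lyz2*, lysozyme, with 95.2 and 51.8 TPM, while *Cd68*, a lysosomal protein, had 14.9 and 19.0 TPM. These sums moved with the same grouping of the wells as every comparison made here, and their part in the results was not tested.

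The question asked was how transcripts of the dioxygenases differed between the groups. In OSKA + 4OHT wells *Egln3*, an oxygen-sensing HIF prolyl hydroxylase, and *P4ha1*, a catalytic subunit of collagen prolyl 4-hydroxylase, were higher, and *P4ha3*, another catalytic subunit of the same enzyme, was lower. Mean levels went from 20.7 ± 4.47 to 183.5 ± 29.1 TPM for *Egln3*, from 71.0 ± 7.82 to 131.5 ± 18.4 TPM for *P4ha1* and from 19.8 ± 0.448 to 6.50 ± 2.26 TPM for *P4ha3* (mean ± SD, n = 3). No JmjC gene, no ALKBH gene, neither *Fto* nor *Phyh* reached an adjusted p-value under 0.05 in limma-trend with Benjamini-Hochberg adjustment over all 15382 genes tested, although *Phf8* did under another scaling of the wells. Thus 2 of the 40 tested genes were called higher, where 3.52% of all tested genes were, and 1 was called lower, where 1.97% of all tested genes were. These counts were close to the background.

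Fold changes are differences of group means on the log2(TPM + 0.5) scale, on which changes of weakly expressed genes appear smaller than they are. The median fold change of all tested genes was 0.14, with more genes higher than lower, and that of the 40 dioxygenase genes was 0.18. Under median log ratio scaling the median of all genes went to 0.03 and that of the dioxygenase genes to 0.06, so a difference of this size is not read as a change. The factors of this scaling were 1.09 in OSKA + 4OHT replicates 1 and 2, 0.968 in replicate 3 and 0.952 to 0.970 in the OSKA − 4OHT wells. Of the 40 genes, 26 (65.0%) had a fold change above 0, against 59.3% of all tested genes. In 9 genes the lowest OSKA + 4OHT value exceeded the highest OSKA − 4OHT value, where 18.1% of all tested genes showed this, and in 3 genes the reverse held, where 10.0% of all tested genes did. The 9 were *Egln3*, *P4ha1*, *Egln1*, *Plod1*, *Plod2*, *Alkbh2*, *Alkbh6*, *Kdm4c* and *Jmjd6*, and the 3 were *P4ha3*, *Phf8* and *Alkbh8*. Under the median scaling *Plod1*, *Plod2* and *Jmjd6* overlapped, while *Kdm7a*, *Phf2* and *Kdm6b* became wholly lower. This gave 6 genes higher, against 14.3% of all tested genes, and 6 lower, against 13.8%.

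**Figure D1:**
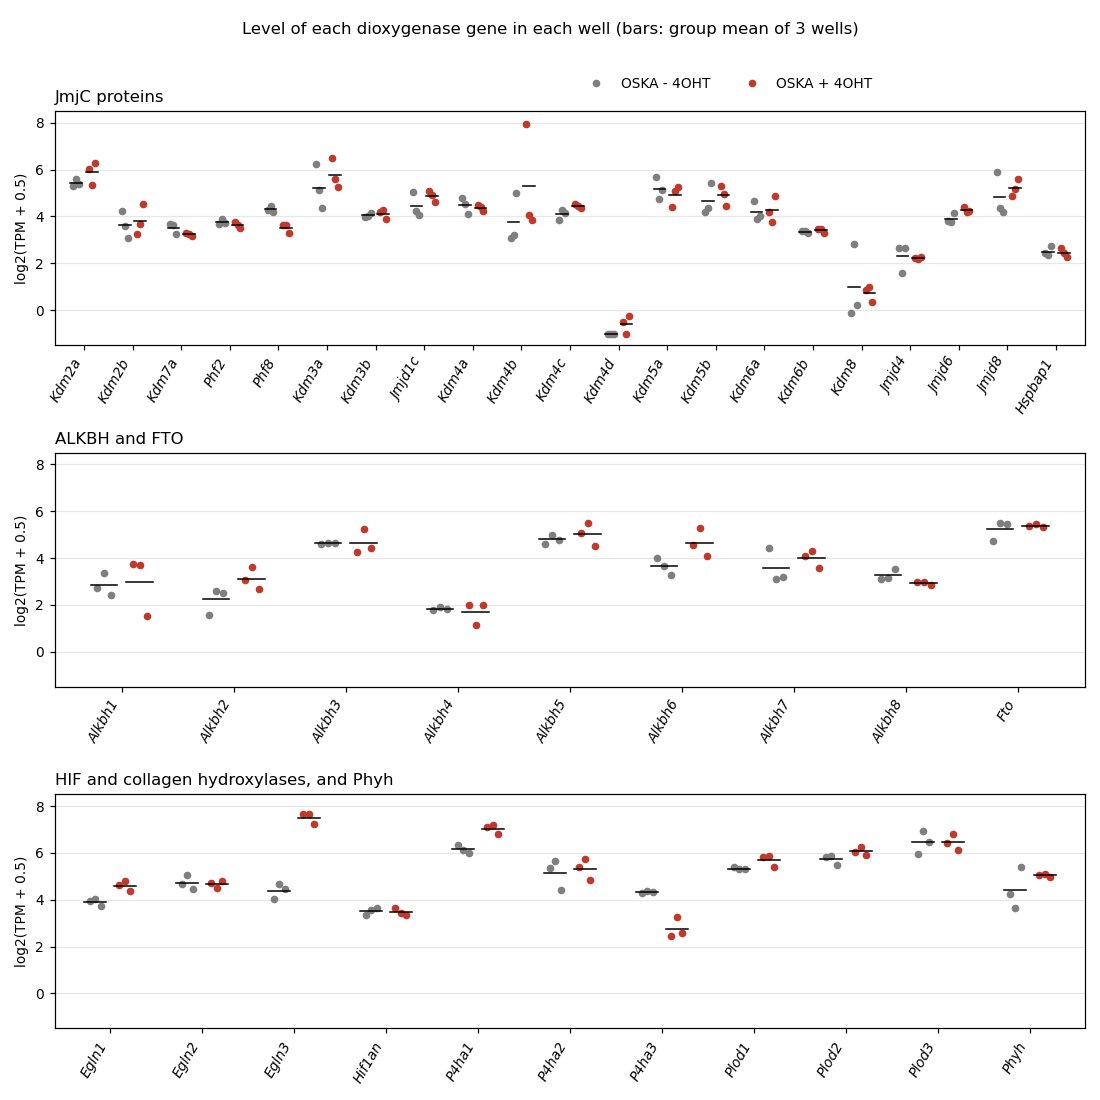
Level of each of the 41 dioxygenase genes in each well, as log2(TPM + 0.5), with grey points for the OSKA − 4OHT wells, red points for the OSKA + 4OHT wells and a bar at the mean of the 3 wells. *Egln3* and *P4ha1* were higher and *P4ha3* lower in every OSKA + 4OHT well, while the single high point of *Kdm4b* is 1 well of 243.5 TPM.

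The upstream sequence is shown for 4 genes: *Egln3* and *P4ha1*, which were called higher, *P4ha3*, the collagen subunit that was called lower, and *Egln1*, which did not overlap between groups. Each is the 250 bases before the gene's RefSeq start on GRCm38.p6, 5′ to 3′ on the strand of the gene. Capitals mark matches to ACGTG or GCGTG on either strand, the core of the element that HIF binds, which on the other strand reads CACGT or CACGC. Overlapping matches were counted as 1. The windows are chr12:54203875-54204124 (minus strand) for *Egln3*, chr10:59323046-59323295 (plus) for *P4ha1*, chr7:100285270-100285519 (plus) for *P4ha3* and chr8:124949255-124949504 (minus) for *Egln1*.
Egln3: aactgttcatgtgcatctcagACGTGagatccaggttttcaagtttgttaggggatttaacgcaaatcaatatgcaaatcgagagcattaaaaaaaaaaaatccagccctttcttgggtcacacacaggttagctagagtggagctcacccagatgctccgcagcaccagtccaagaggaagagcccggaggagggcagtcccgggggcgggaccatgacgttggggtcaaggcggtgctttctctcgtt
P4ha1: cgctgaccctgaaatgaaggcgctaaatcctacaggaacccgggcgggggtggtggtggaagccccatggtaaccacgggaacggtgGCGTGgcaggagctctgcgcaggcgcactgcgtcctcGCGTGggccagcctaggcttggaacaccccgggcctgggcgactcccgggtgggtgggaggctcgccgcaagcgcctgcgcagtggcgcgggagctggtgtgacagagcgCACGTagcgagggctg
P4ha3: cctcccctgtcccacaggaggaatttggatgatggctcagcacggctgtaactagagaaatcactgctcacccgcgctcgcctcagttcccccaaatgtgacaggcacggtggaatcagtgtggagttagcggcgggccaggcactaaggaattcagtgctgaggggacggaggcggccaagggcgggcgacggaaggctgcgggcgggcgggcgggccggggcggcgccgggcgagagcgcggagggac
Egln1: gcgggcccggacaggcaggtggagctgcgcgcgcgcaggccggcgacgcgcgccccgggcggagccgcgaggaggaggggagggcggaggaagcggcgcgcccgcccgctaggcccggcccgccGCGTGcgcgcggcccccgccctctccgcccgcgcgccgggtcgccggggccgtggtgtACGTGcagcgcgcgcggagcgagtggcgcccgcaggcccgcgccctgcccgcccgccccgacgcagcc

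The *Egln3* window held 1 match, that of *P4ha1* 3, that of *Egln1* 2 and that of *P4ha3* 0. The last 70 bases of the *Egln1* window lie within the GENCODE gene, and its ACGTG match is among them. A RefSeq start was matched for 35 of the 41 genes, and 22 of these (62.9%) held at least 1 match. Among 32851 RefSeq windows of the same length 38.6% did, and among 10543 tested genes, with 1 start each, 55.8% did. At least 3 matches were present in 8.77% of those tested genes and none in 44.2%, so the letters are common. A match is a description of letters and shows no binding. No start was matched for *Kdm2a*, *Kdm3b*, *Kdm4b*, *Kdm5a*, *Kdm6b* and *Plod2*.

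*Egln3* encodes PHD3, the HIF prolyl hydroxylase whose own gene is a HIF target, and lies at chr12:54178981-54203860 on the minus strand (GRCm38, GENCODE M21). Its level was 15.8, 24.7 and 21.5 TPM in the OSKA − 4OHT wells and 201.1, 199.5 and 150.0 TPM in the OSKA + 4OHT wells. The lowest OSKA + 4OHT well was thus far above the highest OSKA − 4OHT well. The log2 fold change was 3.13 (SE 0.218, 95% interval 2.60 to 3.65, adjusted p = 0.00347, limma-trend with Benjamini-Hochberg adjustment), and it ranked 122nd from the top among the 15382 tested genes. The call held under all 15 alternative settings, with a fold change of 2.95 to 3.27 when each well was left out in turn. Among the 41 genes it went from 18th in mean level to the first place.

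*Egln1* encodes PHD2, the main oxygen-dependent regulator of HIF-1α in most cells, and is also a HIF target. Its level was 15.1, 15.7 and 12.6 TPM in the OSKA − 4OHT wells and 24.5, 27.3 and 20.0 TPM in the OSKA + 4OHT wells, which did not overlap. The fold change of 0.70 (SE 0.196) missed the threshold (adjusted p = 0.101, limma-trend). *Egln2*, which encodes PHD1, had 26.5 ± 5.60 and 25.2 ± 2.58 TPM, and its 95% interval ran from −0.55 to 0.44. *Hif1an*, which encodes the asparaginyl hydroxylase FIH, had 11.0 ± 1.27 and 10.7 ± 1.24 TPM with an interval of −0.52 to 0.44. For both, a 2-fold change in either direction lay outside the interval.

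Since TPM is per length, levels of the EGLN genes can be added within a well. Their sum was 61.7 ± 9.82 TPM in the OSKA − 4OHT wells and 232.7 ± 30.7 TPM in the OSKA + 4OHT wells, a ratio of 3.77. The share of *Egln3* in this sum was 28.2%, 33.8% and 38.6% in the OSKA − 4OHT wells and 79.9%, 80.1% and 76.0% in the OSKA + 4OHT wells. Thus *Egln2*, the largest component in the OSKA − 4OHT wells with 42.8 ± 3.49% of the sum, made up 11.1 ± 2.51% in the OSKA + 4OHT wells although its own level hardly differed. The share of *Egln1* went from 23.7 ± 2.82% to 10.3 ± 0.625% while its level was higher. These shares do not depend on the scaling between wells.

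Collagen prolyl 4-hydroxylase is a tetramer of catalytic alpha subunits, encoded by *P4ha1*, *P4ha2* or *P4ha3*, and of the beta subunit P4HB, and it stabilises the collagen triple helix. *P4ha1* lies at chr10:59323296-59373304 on the plus strand and had 79.6, 69.1 and 64.3 TPM in the OSKA − 4OHT wells and 135.8, 147.4 and 111.3 TPM in the OSKA + 4OHT wells. The groups did not overlap, and the fold change was 0.88 (SE 0.162, 95% interval 0.49 to 1.27, adjusted p = 0.0336, limma-trend with Benjamini-Hochberg adjustment). The call depended on the wells. Without OSKA + 4OHT replicate 3 the adjusted p was 0.0454 and the call was kept, whereas without any one of the other 5 wells it was lost, at 0.0595 to 0.124 in limma-trend, with fold changes of 0.79 to 0.996 over all 6 omissions.

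*P4ha3* lies at chr7:100285520-100319699 on the plus strand. Its level was 19.3, 20.2 and 19.8 TPM in the OSKA − 4OHT wells and 4.92, 9.09 and 5.50 TPM in the OSKA + 4OHT wells. The OSKA − 4OHT wells were nearly equal and all lay above the OSKA + 4OHT wells, of which replicate 2 was the highest. The fold change was −1.58 (SE 0.262, 95% interval −2.21 to −0.95, adjusted p = 0.0261, limma-trend with Benjamini-Hochberg adjustment). This call too was lost when a well was left out, with an adjusted p of 0.0711 to 0.0896 in limma-trend, except without OSKA + 4OHT replicate 2, where it was 0.0318. The fold change stayed between −1.83 and −1.42. Of the 8 fibroblast markers 3 were called lower, where 1.97% of all tested genes were, and 0 higher. They were *Col1a2*, a fibrillar collagen chain, with a fold change of −0.88, *Fn1*, fibronectin, with −0.91 and *Pdgfrb*, a receptor of mesenchymal cells, with −1.65. Without OSKA + 4OHT replicate 1 the count was 0 and without OSKA + 4OHT replicate 2 it was 1. Of the 5 that did not pass, *Thy1*, a surface glycoprotein, was the single one above 0, with 179.4 and 293.0 TPM and no overlap (0.69, adjusted p = 0.203, limma-trend).

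*P4ha2* had 37.0 ± 14.6 and 41.1 ± 12.2 TPM and did not pass the test (95% interval −0.72 to 1.10). The 3 alpha subunits together had 127.7 ± 19.6 TPM in the OSKA − 4OHT wells and 179.1 ± 32.2 TPM in the OSKA + 4OHT wells. Within that sum, the share of *P4ha1* went from 56.0 ± 5.84% to 73.8 ± 3.13% and that of *P4ha3* from 15.7 ± 2.67% to 3.61 ± 0.844%, both without overlap, while the share of *P4ha2* overlapped between groups. The partner *P4hb*, which encodes protein disulfide isomerase, had 434.3 and 543.3 TPM (fold change 0.32, adjusted p = 0.153, limma-trend).

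**Figure D2:**
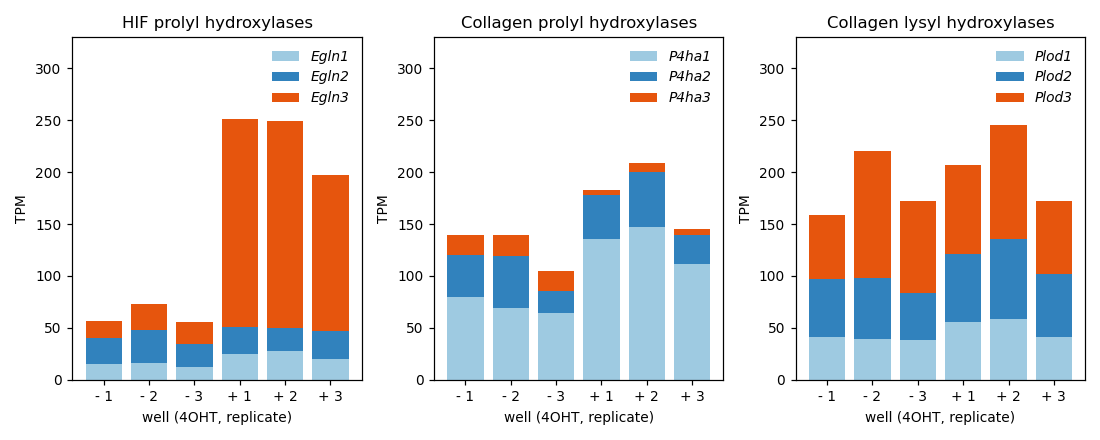
Summed TPM of the HIF prolyl hydroxylase, collagen prolyl hydroxylase and collagen lysyl hydroxylase genes in each OSKA − 4OHT (−) and OSKA + 4OHT (+) well, stacked by gene. *Egln3* fills most of the EGLN bar in the 3 OSKA + 4OHT wells, *P4ha3* shrinks beside *P4ha1*, and the PLOD bars overlap between the groups.

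The lysyl hydroxylases *Plod1*, *Plod2* and *Plod3* prepare collagen for cross-linking and for the addition of sugars. *Plod1* had 39.7 ± 1.29 and 51.9 ± 8.95 TPM, and *Plod2*, a HIF target whose product acts on the telopeptides, had 53.2 ± 7.60 and 67.5 ± 8.35 TPM. In neither did the groups overlap as deposited, and neither passed the test (adjusted p = 0.292 and 0.321, limma-trend). *Plod3*, the most abundant of the 41 in the OSKA − 4OHT wells, had 90.8 ± 30.5 and 88.8 ± 20.3 TPM with a fold change of −0.0023, the nearest to 0 of the hydroxylase genes. The sum of the 3 genes was 183.7 ± 32.3 and 208.1 ± 36.7 TPM, with overlap.

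Of the 41 genes, 7 are known HIF targets: *Egln1*, *Egln3*, *P4ha1*, *P4ha2*, *Plod2*, *Kdm3a* and *Kdm4b*. All 7 had a fold change above 0, where 59.3% of all tested genes did. Their median was 0.70, and 2 passed the test in a background of 3.52%. Without OSKA + 4OHT replicate 1, in which *Kdm4b* was very high, the median was 0.37 and *Egln3* alone passed. Only the omission of OSKA + 4OHT replicate 3 left 2 called, and each other omission left 1. *P4ha2* turned to −0.16 without OSKA − 4OHT replicate 3 and to −0.0067 without OSKA + 4OHT replicate 2. In these fits 6 of the 7 were above 0. Among 10 HIF targets outside the dioxygenases, 6 were called higher and 0 lower, where 3.52% and 1.97% of all tested genes were. The median of the 10 was 1.46. The largest called changes were those of *Slc2a1*, the glucose transporter GLUT1 (3.03), *Bnip3*, a mitophagy receptor (2.07), and *Pdk1*, a kinase that restrains pyruvate oxidation (1.51), and *Ldha*, *Pgk1* and *Vegfa* also passed. *Car9*, *Ndrg1*, *Ankrd37* and *Adm*, named after their values were seen, did not pass. Of these *Adm* alone was below 0 (−0.29). Leaving out each well in turn left 3 to 5 of the 10 called, with 3 without OSKA − 4OHT replicate 2, OSKA + 4OHT replicate 1 or OSKA + 4OHT replicate 2. The list was chosen with results of these data known.

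**Figure D3:**
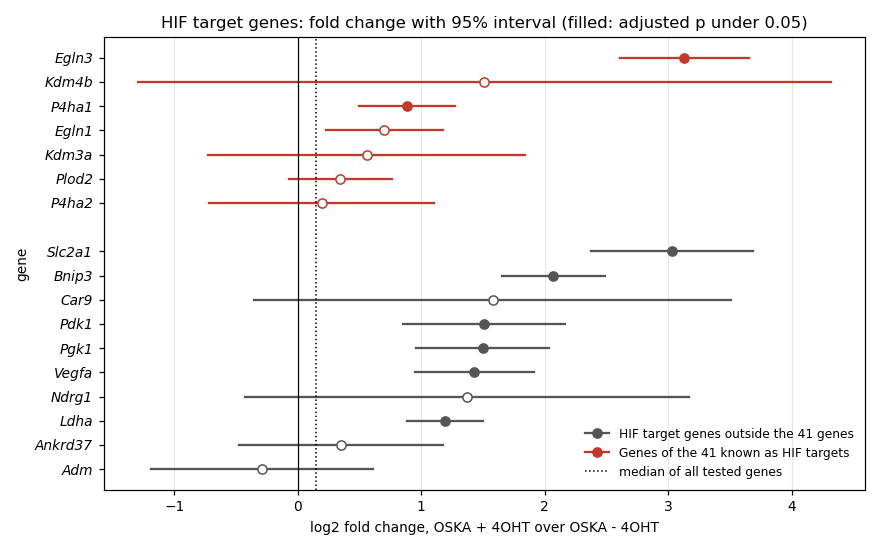
Log2 fold change with 95% interval of the 7 dioxygenase genes known as HIF targets (red) and of 10 other HIF targets (grey), with filled points for an adjusted p-value under 0.05 and a dotted line at the median of all tested genes. *Egln3* at 3.13 and *Slc2a1* at 3.03 lie farthest to the right, and the interval of *Kdm4b* is the widest.

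The transcripts of the HIF factors themselves did not pass the test. *Hif1a*, the oxygen-regulated alpha subunit, had 79.4 and 89.6 TPM (fold change 0.18). *Epas1*, which encodes HIF-2α, had 42.9 and 28.7 TPM (−0.46). Its wells were 26.7, 33.3 and 68.7 TPM against 30.6, 30.8 and 24.7 TPM, so OSKA − 4OHT replicate 3 raised the mean. *Vhl*, which encodes the ubiquitin ligase subunit that binds hydroxylated HIF, had 20.4 and 29.0 TPM (0.64). Its wells were 14.1, 34.5 and 12.6 TPM against 33.6, 26.5 and 26.9 TPM, with overlap. Of the 8 listed genes of this group 7 were tested and 0 were called by limma-trend, with 1 higher at an unadjusted p under 0.05, where 14.1% of all tested genes were (*Arnt*, the shared beta subunit, 0.43, named after its value was seen). HIF protein is regulated mainly by its stability, which TPM do not measure. Whether HIF took part in the differences of its target genes was not tested.

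The JmjC proteins hold the histone lysine demethylases of the KDM2 to KDM7 families with some protein hydroxylases. Of the 21 genes 20 were tested and 0 were called by limma-trend, with 1, *Phf8*, lower at an unadjusted p under 0.05. At that threshold 14.1% of all tested genes were higher and 7.18% lower. The same count under the other settings was 0, except for *Phf8* under the rescaled wells. The median fold change was 0.07, below the 0.14 of all genes, and fold changes ran from −0.79 to 1.51. This order of the medians was not stable. Without OSKA + 4OHT replicate 2 the JmjC median was 0.125 against 0.114 for all genes. With a filter at a mean of 5 TPM it was 0.139 against 0.137. It was 0.043 without OSKA + 4OHT replicate 1, −0.047 under median log ratio scaling and −0.084 under quantile normalization. In 2 of the 20 genes (10.0%, against 18.1% of all genes) the OSKA + 4OHT wells lay wholly above and in 1 (5.0%, against 10.0%) wholly below. Under the median scaling these counts turned to 1 above, *Kdm4c*, and 4 below, *Phf8*, *Kdm7a*, *Phf2* and *Kdm6b*, against 14.3% and 13.8% of all tested genes under that scaling.

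*Phf8* encodes a demethylase of histones H3 and H4 that binds active promoters. Its level was 19.1, 21.4 and 17.7 TPM in the OSKA − 4OHT wells and 11.9, 12.0 and 9.34 TPM in the OSKA + 4OHT wells, without overlap. The fold change was −0.79 (SE 0.192, 95% interval −1.25 to −0.33), the lowest of the JmjC genes, with adjusted p = 0.0703 in limma-trend. Under median log ratio scaling it was −0.91 with adjusted p = 0.0324 and under quantile normalization −0.94 with 0.0309, so the call depends on the scaling. Its relatives *Kdm7a* and *Phf2* had fold changes of −0.28 and −0.14, and their wells overlapped as deposited but lay wholly lower in the OSKA + 4OHT group under the median scaling. The share of *Phf8* in the sum of *Kdm2a*, *Kdm2b*, *Kdm7a*, *Phf2* and *Phf8* went from 19.7 ± 0.540% to 10.7 ± 3.34%.

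*Kdm2a* and *Kdm2b* encode demethylases that bind unmethylated CpG islands through a zinc finger, and *Kdm2b* brings a Polycomb complex there. *Kdm2a* had 38.4, 47.4 and 41.2 TPM in the OSKA − 4OHT wells and 65.0, 40.6 and 77.7 TPM in the OSKA + 4OHT wells, so that OSKA + 4OHT replicate 2 lay among the OSKA − 4OHT wells. *Kdm2b* had 12.6 ± 5.27 and 14.7 ± 7.18 TPM, and left-out wells turned its direction. *Kdm2b* shares 615 bases of identical sequence on the same strand with the transcript *Gm12397*, between which reads may have been split.

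*Kdm4b*, a demethylase of H3K9 and a HIF target, had the largest JmjC fold change, 1.51 with an SE of 1.16 (95% interval −1.29 to 4.31). It rested on 1 well. The levels were 8.02, 8.86 and 31.5 TPM in the OSKA − 4OHT wells and 243.5, 16.2 and 14.1 TPM in the OSKA + 4OHT wells, where replicate 1 was 17.3 times the lowest well of its group. The other KDM4 genes did not share this pattern: *Kdm4a* had 22.1 TPM and *Kdm4c* 22.5 TPM in that well, near their group means of 20.3 and 21.3 TPM. Annotated transcripts of *Kdm4b* run from 130 to 4577 bases. From which of them the reads came was not tested.

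*Kdm4c* had 14.0, 19.1 and 17.0 TPM against 22.5, 21.5 and 19.9 TPM. These groups did not overlap, yet the fold change of 0.35 did not pass the test (adjusted p = 0.341, limma-trend). *Kdm4d*, a KDM4 gene best known from testis, was listed at 0 in the 3 OSKA − 4OHT wells and in OSKA + 4OHT replicate 2, and at 0.212 and 0.340 TPM in replicates 1 and 3. It was not tested.

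The KDM3 genes *Kdm3a*, a HIF target, *Kdm3b* and *Jmjd1c*, whose family removes H3K9 methylation, had fold changes of 0.56, 0.06 and 0.41. With a well left out, that of *Kdm3a* ran from 0.11 to 1.05 and that of *Jmjd1c* from 0.22 to 0.72. *Kdm3a* varied 3.74 times between the OSKA − 4OHT wells, with 74.1, 34.7 and 19.8 TPM, against 89.3, 48.6 and 38.0 TPM, and the groups overlapped. In contrast *Kdm3b* was steady, with 16.2 ± 1.15 and 16.9 ± 2.49 TPM. One of its transcripts matches *Gm26538* on the opposite strand over 3498 bases, and no level was matched for *Gm26538*. *Jmjd1c* had 22.4 ± 8.95 and 28.9 ± 4.79 TPM.

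*Kdm5a* and *Kdm5b*, which remove H3K4 methylation, had 37.5 ± 12.7 and 26.7 ± 13.4 TPM in the OSKA − 4OHT wells and 30.8 ± 8.91 and 30.6 ± 8.81 TPM in the OSKA + 4OHT wells. Their sum hardly differed, with 64.2 ± 15.9 and 61.4 ± 2.72 TPM. *Kdm6a* (UTX) and *Kdm6b* (JMJD3), which remove the Polycomb mark H3K27me3, had 18.3 ± 5.69 and 9.75 ± 0.346 TPM against 19.9 ± 8.07 and 10.1 ± 0.695 TPM. The interval of *Kdm6b*, −0.39 to 0.49, is among the narrow ones and contains no 2-fold change.

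Of the other JmjC genes, *Jmjd6*, which encodes a lysyl hydroxylase of splicing factors, had 13.3, 12.9 and 17.3 TPM against 20.6, 17.6 and 18.3 TPM, a fold change of 0.37 (adjusted p = 0.333, limma-trend). *Kdm8*, which encodes JMJD5, was the lowest of the tested genes, with 0.421, 6.51 and 0.653 TPM against 1.34, 1.51 and 0.757 TPM. Its mean in the OSKA − 4OHT group thus came from replicate 2, and its 95% interval ran from −2.31 to 1.86. *Jmjd8* had 59.6, 20.0 and 17.7 TPM against 29.1, 35.8 and 48.6 TPM, and a stretch of its transcript overlaps *Stub1* on the opposite strand. *Jmjd4*, which acts on a translation termination factor, and *Hspbap1*, named for its binding to a heat shock protein, had fold changes of −0.08 and −0.05. The *Jmjd4* transcript overlaps *Snap47* on the opposite strand over 307 bases. *Snap47* had 92.5 to 132.3 TPM, against 2.53 to 5.76 TPM for *Jmjd4*, so shared reads could weigh on its level.

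**Figure D4:**
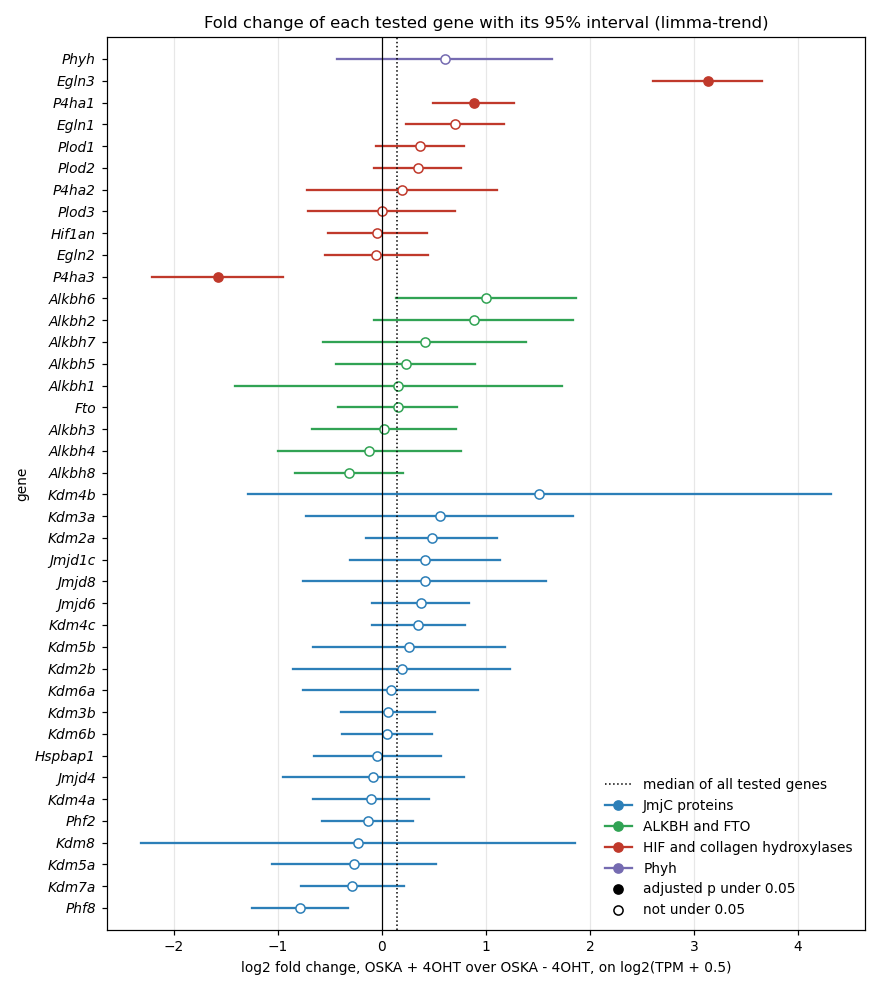
Log2 fold change of OSKA + 4OHT over OSKA − 4OHT wells with its 95% interval for the 40 tested genes, ordered within each class, with filled points for an adjusted p-value under 0.05 and a dotted line at the median of all tested genes (0.14). The filled points are *Egln3*, *P4ha1* and *P4ha3*, and *Kdm4b* and *Kdm8* have the widest intervals.

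ALKBH proteins and FTO remove methyl groups from bases of DNA and RNA or act on tRNA and protein. Of the 9 genes 0 were called by limma-trend in the fit and under every alternative, with 1, *Alkbh6*, higher at an unadjusted p under 0.05, where 14.1% of all tested genes were. The median fold change was 0.16, near that of all genes. With a well left out it ran from 0.092 (OSKA − 4OHT replicate 1) to 0.49 (OSKA + 4OHT replicate 3). In the latter fit the median of all genes was 0.19. *Alkbh6*, whose substrates are less well known, had 15.4, 12.3 and 9.14 TPM against 22.8, 38.9 and 16.5 TPM, and the groups did not overlap. Its fold change was 0.999 (SE 0.359, adjusted p = 0.179, limma-trend), the largest of the class. *Gm24757*, which shares 371 bases with it on the same strand, was listed at 0 in all 6 wells.

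*Alkbh2*, a DNA repair demethylase, had 2.49, 5.58 and 5.23 TPM against 7.86, 11.8 and 5.85 TPM. The lowest OSKA + 4OHT well was barely above the highest OSKA − 4OHT well, and the fold change of 0.88 had adjusted p = 0.268 in limma-trend. Its transcript overlaps that of *Usp30* on the opposite strand over 331 bases. *Alkbh8*, a tRNA wobble uridine methyltransferase and hydroxylase, had 8.10, 8.39 and 11.0 TPM against 7.48, 7.47 and 6.68 TPM. This was the lowest fold change of the class, −0.31 (adjusted p = 0.470, limma-trend), without overlap of the wells.

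The RNA N6-methyladenosine erasers *Fto* and *Alkbh5* had 38.2 ± 10.4 and 27.5 ± 3.60 TPM in the OSKA − 4OHT wells and 41.3 ± 1.91 and 33.4 ± 11.2 TPM in the OSKA + 4OHT wells. Neither passed the test, and the 95% intervals, −0.42 to 0.73 and −0.44 to 0.90, contain no 2-fold change. *Alkbh1*, linked to tRNA and mitochondrial methylation, had 13.0, 12.6 and 2.38 TPM in the OSKA + 4OHT wells, a 5.49-fold range in 1 group. *Alkbh3*, which repairs alkylated DNA and RNA, was tight in the OSKA − 4OHT wells (24.2 ± 0.372 TPM) and spread in the OSKA + 4OHT wells (25.8 ± 10.5 TPM). *Alkbh4*, a demethylase of actin, and *Alkbh7*, a mitochondrial protein linked to programmed necrosis, had fold changes of −0.12 and 0.41. That of *Alkbh7* ran from 0.18 to 0.83 with a well left out.

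*Phyh* encodes the peroxisomal phytanoyl-CoA hydroxylase of fatty acid alpha-oxidation. Its level was 18.7, 12.0 and 41.6 TPM in the OSKA − 4OHT wells and 32.5, 33.4 and 31.2 TPM in the OSKA + 4OHT wells. The OSKA + 4OHT wells agreed closely and lay within the wide range of the OSKA − 4OHT wells, so the fold change of 0.60 (SE 0.430) did not pass the test (adjusted p = 0.487, limma-trend). It was 0.21 without OSKA − 4OHT replicate 2 and 1.08 without OSKA − 4OHT replicate 3.

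For the 37 tested genes that were not called, the interval shows how large a change the data still allow. In 19 of them, 10 JmjC genes, 4 of the ALKBH class and 5 hydroxylase genes, the 95% interval excluded a 2-fold change in either direction. A 2-fold rise was outside the interval in 22 and a 2-fold fall in 31. Of the 40 tested genes, 6 had a highest well at least 3 times the lowest well of the same group, namely *Alkbh1*, *Jmjd8*, *Kdm3a*, *Kdm4b*, *Kdm8* and *Phyh*. This was 15.0% of the 40 tested genes, against 33.9% of all tested genes.

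The summed TPM of the 41 genes was 933.3 ± 47.7 in the OSKA − 4OHT wells and 1336.9 ± 210.6 in the OSKA + 4OHT wells. Without *Egln3* and *Kdm4b* it was 896.4 ± 62.6 and 1062.2 ± 98.3 TPM, a ratio of 1.18 that did not overlap as deposited but overlapped under the median scaling. The 10 hydroxylase genes went from 384.1 ± 52.4 to 630.7 ± 96.9 TPM. Most of this difference was *Egln3*, which went from 20.7 to 183.5 TPM. Without *Kdm4b* the JmjC genes had 370.6 ± 70.8 and 412.5 ± 33.1 TPM with overlap. In both groups *P4ha1* was the second and *Plod2* among the first 5 by mean level, whereas *P4ha3* went from the 19th to the 36th place, and *Kdm8* and *Kdm4d* were at the low end. Among the 41 genes the largest difference in mean TPM was that of *Egln3*.

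Of 19 further alpha-ketoglutarate-dependent oxygenases outside the 41, 18 were matched and tested, and 0 were called by limma-trend, with 2 higher and 1 lower at an unadjusted p under 0.05, where 14.1% and 7.18% of all tested genes were. The largest fold changes are given, chosen after their values were seen. *P4htm*, which encodes a transmembrane prolyl hydroxylase, had 3.25 and 10.6 TPM (fold change 1.61, adjusted p = 0.0851), and *Phyhd1*, a relative of *Phyh*, had 11.5 and 1.30 TPM with 2 OSKA + 4OHT wells listed at 0 (adjusted p = 0.0774, limma-trend). Without OSKA + 4OHT replicate 1, which left the wells listed at 0, *Phyhd1* was called lower and the count was 1. Among 8 collagen folding partners 0 were called by limma-trend, and 1 (*P4hb*) was higher at an unadjusted p under 0.05, where 14.1% of all tested genes were.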

How the data were processed

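RNA from 6 wells, 3 per group, was sequenced with a stranded poly(A) kit as 50-base single-end reads. The authors trimmed reads with Trim Galore and quantified them against the mouse transcriptome with Salmon. The deposited table gives TPM for each gene, and each well sums to 1000000. Versions and annotation release are not given in the sources used here, nor whether strand was used in counting. The depth is not kept in TPM. The authors also deposited their own comparison (log2 fold changes and log2 average levels, a score, which is an F statistic, and p-values), which was not used.

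Symbols and positions were matched by Ensembl ID to GENCODE M21 on GRCm38 for 54097 of 54331 genes. limma-trend (limma 3.58.1, R 4.3.3) was run without a block on log2(TPM + 0.5) over the 15382 genes whose mean reached 1 TPM, with Benjamini-Hochberg adjustment, and adjusted p-values under 0.05 were taken as calls. The test was checked on simulated data. Similar transcripts (at least 95% identity over 200 bases) were sought with BLAST 2.17.0, and other steps used Python 3.11.15 and pandas 2.3.3. Similar sequence on the same strand was found for 3 of the 41 genes and on the opposite strand for 10, where reads may be shared, and none for *Egln3*, *P4ha1* and *P4ha3*. Values of 3 wells against 3 cannot give a permutation p below 0.1, so no single-gene permutation test was made.

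The rule for the members is enzyme family and uses no measured value, but the families and the gene lists were chosen with earlier results of these data known. Every member is named. Values per well are given for called members, for the members with the largest and smallest fold change of each class, for those listed at 0, and for others where wells stand apart. Of other lists, at most the 3 largest called genes and the partners *Hif1a*, *Epas1*, *Vhl* and *P4hb* are named with values, and others are marked or stand as markers. Alternatives were other pseudocounts, filters, scalings, variance models, a replicate block and leaving out each well. Totals without *Egln3* and *Kdm4b*, rescaled totals and the other lists under these settings were added after seeing the data. The gene for trimethyllysine hydroxylase was not analysed here.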

Additional observations from a re-analysis of the deposited data

How the results depend on the processing

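*Egln3* kept its direction and stayed under the threshold in all 15 alternative settings, with adjusted p-values of 0.0111 to 0.0240 when a well was left out and 0.00224 to 0.0499 otherwise (limma-trend). The calls of *P4ha1* and *P4ha3* kept their direction in all settings but not their side of the threshold. Over all genes, 542 were called higher and 303 lower, against 462 and 471 under median log ratio scaling and 428 and 434 under quantile normalization. Among the members 2 were lower under either scaling, since *Phf8* was added, and without a variance trend 1 was higher, *Egln3*, as *P4ha1* lost its call (adjusted p = 0.0737, limma). With a well left out, 112 to 318 genes were called higher and 63 to 147 lower, and 1 to 2 and 0 to 1 of the members. The replicate block gave 31 higher and 16 lower genes, and 1 and 0 members (*P4ha1* 0.101, *P4ha3* 0.0939, adjusted p in limma-trend), and left 1 of the 10 other HIF targets called higher in place of 6 and 0 of the 8 fibroblast markers called lower in place of 3 (1 without a variance trend). Same-numbered wells deviated together only weakly (r = 0.0235, 0.0341 and 0.0837 across genes), so the numbers were not taken as pairs. Direction turned in 16 members of small fold change. Under median scaling it became −0.062 in *Kdm3b*, −0.032 in *Kdm6a*, −0.068 in *Kdm6b* and −0.10 in *Alkbh3*, and under quantile normalization −0.11 in *Kdm3b*, −0.064 in *Kdm6a*, −0.12 in *Kdm6b*, −0.025 in *Alkbh1* and −0.12 in *Alkbh3*. With wells left out it ran from −0.22 to 0.90 in *Alkbh1*, −0.29 to 0.22 in *Alkbh3*, −0.27 to 0.17 in *Alkbh4*, −0.0082 to 0.49 in *Alkbh5*, −0.19 to 0.10 in *Egln2*, −0.10 to 0.28 in *Fto*, −0.13 to 0.025 in *Hif1an*, −0.15 to 0.066 in *Hspbap1*, −0.43 to 0.094 in *Jmjd4*, −0.17 to 0.49 in *Kdm2b*, −0.023 to 0.18 in *Kdm3b*, −0.30 to 0.056 in *Kdm4a*, −0.21 to 0.34 in *Kdm6a*, −0.16 to 0.45 in *P4ha2* and −0.26 to 0.24 in *Plod3*. The cause was not tested. Fewer wells give less precise estimates. Depth is not kept in TPM, so no counting error can be given.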

Other observations

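Of 7 genes of the supply of iron and ascorbate, the cofactors of these enzymes, 1 was called higher, where 3.52% of all tested genes were. It was *Slc23a2*, which encodes an ascorbate transporter, with 7.90, 8.77 and 8.75 TPM in the OSKA − 4OHT wells and 17.1, 15.7 and 15.0 TPM in the OSKA + 4OHT wells (fold change 0.87, SE 0.177, adjusted p = 0.0444, limma-trend). The call was lost under 10 of the 15 alternative settings, namely both scalings, no filter, the replicate block and each of the 6 omissions of a well. *Tfrc*, the transferrin receptor (1.46), *Steap3*, an iron reductase (2.07), and *Slc11a2*, an iron importer (0.93), did not overlap between groups but missed the threshold. With *Slc23a2*, 4 of the 7 genes were wholly higher, where 18.1% of all tested genes were. *Fth1*, a ferritin chain, had a fold change of −0.0038. *Tfrc*, *Steap3*, *Slc11a2* and *Fth1* were named after their values were seen.

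Enzymes that write the marks the members remove were not called in the values as deposited. Among 15 histone lysine methyltransferases 0 were called by limma-trend, with 3 higher and 1 lower at an unadjusted p under 0.05, where 14.1% and 7.18% of all tested genes were. Their median fold change was 0.14 as deposited and ran from −0.057 without OSKA − 4OHT replicate 1 to 0.30 without OSKA − 4OHT replicate 3. *Ezh1* alone was called lower under median log ratio scaling and under quantile normalization. The pair of catalytic subunits that act in Polycomb complexes went in opposite directions by mean level, with *Ezh1* at 23.7 and 11.2 TPM (adjusted p = 0.0641) and *Ezh2* at 32.7 and 59.0 TPM (adjusted p = 0.214, limma-trend), again named after their values were seen. Among 12 N6-methyladenosine writers and readers 0 were called by limma-trend, with 0 at an unadjusted p under 0.05, although without OSKA + 4OHT replicate 2 the count was 1 lower, *Zc3h13*, a subunit of the writer complex. Among the 2 flavin-dependent lysine demethylases 0 were called by limma-trend, with 0 at an unadjusted p under 0.05.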
